A study of Mus musculus with 2 samples.

Results

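Of the 4858 loops called on chromosomes 1 to 19 in V6.5 mouse embryonic stem cells, 259 (5.33%, Wilson 95% interval 4.73 to 6.00%) had an end of a protein-coding gene inside each anchor, with different genes at the 2 anchors. The whole list held 4982 loops. A loop is a pair of genomic intervals, its anchors, that the authors' caller found to touch more often than their surroundings, and a gene end is the first or last base of a gene record of the RefSeq table. V6.5 is a male pluripotent line. All samples belonged to 1 group, siControl: wild-type cells transfected with the siGLO control reagent at 50 nM and collected after 48 hours, in 2 samples, assayed by Micro-C, in which micrococcal nuclease cuts crosslinked chromatin before nearby ends are ligated. The list gives 1 set of values for the group and none per sample, so no spread between replicates could be measured, and every comparison below is a description without a test. The read depth is unknown. Intervals on shares cover counting error only.

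Loops form when the cohesin ring extrudes chromatin until it meets CTCF, and other contacts arise when promoters, enhancers or regions coated by Polycomb repressive complexes come together. In embryonic stem cells the silent genes of developmental transcription factors are known to be coated by Polycomb complexes and to meet one another over long distances. Gene families that arose by duplication often remain side by side, so that relatives such as protocadherins, histones or olfactory receptors share a neighbourhood. A loop with genes at both feet may therefore join relatives, unrelated neighbours or distant regulators, and these cases are described in turn.

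The promoters of developmental regulators and of a duplicated enzyme pair at opposite anchors are printed here because they belong to loops described first or to a family loop with a start at each foot. Each is the 250 bases before the RefSeq start on GRCm38.p6, the assembly that mm10 names, 5′ to 3′ on the gene's strand, with every CpG dinucleotide in capitals. A gene with several starts has the one nearest the 5′ end of its record; in Evx2 and Foxa1 this start lies 1963 and 1918 bases inside the record.
Dlx2, chr2:71546755-71547004, minus strand: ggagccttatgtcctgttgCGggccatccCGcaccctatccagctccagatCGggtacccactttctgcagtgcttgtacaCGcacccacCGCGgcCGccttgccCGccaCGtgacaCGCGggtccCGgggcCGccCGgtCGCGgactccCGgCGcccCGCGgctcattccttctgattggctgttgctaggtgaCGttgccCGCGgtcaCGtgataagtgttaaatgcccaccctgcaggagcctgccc
Evx2, chr2:74659558-74659807, minus strand: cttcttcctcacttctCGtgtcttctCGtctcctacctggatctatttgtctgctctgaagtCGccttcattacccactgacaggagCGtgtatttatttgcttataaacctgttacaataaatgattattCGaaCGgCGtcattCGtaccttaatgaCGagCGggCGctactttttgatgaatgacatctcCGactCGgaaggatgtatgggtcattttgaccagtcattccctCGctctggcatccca
Hoxd13, chr2:74667975-74668224, plus strand: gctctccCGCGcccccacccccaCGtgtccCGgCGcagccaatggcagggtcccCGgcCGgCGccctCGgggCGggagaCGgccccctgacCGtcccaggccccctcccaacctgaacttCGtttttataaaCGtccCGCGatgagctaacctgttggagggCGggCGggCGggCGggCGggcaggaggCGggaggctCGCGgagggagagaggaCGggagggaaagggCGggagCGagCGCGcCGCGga
Nkx2-1, chr12:56536909-56537158, minus strand: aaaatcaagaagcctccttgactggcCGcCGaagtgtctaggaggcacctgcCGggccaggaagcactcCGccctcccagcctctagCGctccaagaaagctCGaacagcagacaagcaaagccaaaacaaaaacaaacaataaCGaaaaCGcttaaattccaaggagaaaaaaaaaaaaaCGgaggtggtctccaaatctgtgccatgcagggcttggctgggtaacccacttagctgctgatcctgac
Foxa1, chr12:57546112-57546361, minus strand: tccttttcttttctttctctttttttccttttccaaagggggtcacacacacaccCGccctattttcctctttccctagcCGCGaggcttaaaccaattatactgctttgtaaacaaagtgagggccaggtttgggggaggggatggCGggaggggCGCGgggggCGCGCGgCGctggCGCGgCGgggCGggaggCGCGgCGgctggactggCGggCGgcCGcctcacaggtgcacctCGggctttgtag
Irx3, chr8:91801655-91801904, minus strand: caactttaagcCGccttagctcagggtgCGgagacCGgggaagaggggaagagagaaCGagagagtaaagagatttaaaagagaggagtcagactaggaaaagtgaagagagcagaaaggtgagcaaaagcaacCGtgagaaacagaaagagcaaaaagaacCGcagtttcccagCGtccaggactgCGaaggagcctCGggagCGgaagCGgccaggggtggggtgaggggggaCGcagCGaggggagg
Hs3st3b1, chr11:63922285-63922534, minus strand: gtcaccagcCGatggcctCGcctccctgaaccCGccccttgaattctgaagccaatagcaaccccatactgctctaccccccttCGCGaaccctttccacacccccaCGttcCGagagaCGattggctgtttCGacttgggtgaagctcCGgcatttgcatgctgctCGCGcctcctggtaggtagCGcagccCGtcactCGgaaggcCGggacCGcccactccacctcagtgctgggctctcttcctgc
Hs3st3a1, chr11:64435082-64435331, plus strand: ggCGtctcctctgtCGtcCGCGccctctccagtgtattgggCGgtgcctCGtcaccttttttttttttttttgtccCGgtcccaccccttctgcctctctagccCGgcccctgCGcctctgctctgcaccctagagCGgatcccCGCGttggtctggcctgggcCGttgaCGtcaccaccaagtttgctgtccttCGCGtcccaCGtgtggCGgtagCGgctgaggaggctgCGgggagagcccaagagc
Shh, En2 and Irx5 were not in the promoter table. Dlx2 at one foot faced Evx2 and Hoxd13 at the other, Nkx2-1 faced Foxa1, and Hs3st3b1 faced Hs3st3a1. Hoxd13 held 31 CpGs in this window, Dlx2 held 24, Foxa1 21, Hs3st3a1 20, Hs3st3b1 17, Evx2 14, Irx3 13 and Nkx2-1 9. Among the windows printed, the ratio of observed to expected CpG, which corrects for base composition, was lowest in Nkx2-1 at 0.564 and highest in Evx2 at 1.10. Other regulators of such loops are not printed. Of these, Hmx2 at 0.0657 and Pax2 at 0.391 lay below Nkx2-1, while Nkx1-2, Tlx1, Dlx1 and Hmx3 had 0.666, 0.676, 0.764 and 0.907.

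The anchors of these loops held 634 different genes, 3.07% of the 20665 autosomal protein-coding genes, of which 24 had predicted symbols. They made 432 gene pairs. In 146 loops a single gene stood at each anchor, and no anchor held more than 4. In 2 loops, Dcp2/Mcc to Mcc and Pitpnc1 to Pitpnc1/Psmd12, a single gene reached both anchors and another gene at one of them made the pair. Another 4 loops joined only the ends of a single gene (Abtb2, Cacng2, Matn2 and Grk5) and were not counted.

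How often both feet held genes differed with anchor width, which is the pixel size of the contact map in which each loop was found. The share was 2.53% (1.80 to 3.55%) of the 1265 loops of 5 kb pixels, 4.77% (4.06 to 5.60%) of the 2957 loops of 10 kb pixels and 13.5% (11.1 to 16.4%) of the 636 loops of 25 kb pixels, and these intervals did not overlap. A wider anchor can hold more gene ends, and the part of width in these shares was not tested. Loops of 25 kb pixels thus made up 33.2% of the gene-to-gene loops and 12% of the other 4599 autosomal loops. By chromosome the share ran from 2.59% (7 of 270 loops, 1.26 to 5.25%) on chromosome 6 to 11.4% (22 of 193, 7.65 to 16.7%) on chromosome 7. Chromosome 7 also carried the most protein-coding records, 2030. But chromosome 2, with 1782 records, had a share of 3.82%, and chromosome 19, with 705, had 7.76%. The part of gene number was not tested.

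**Figure D1:**
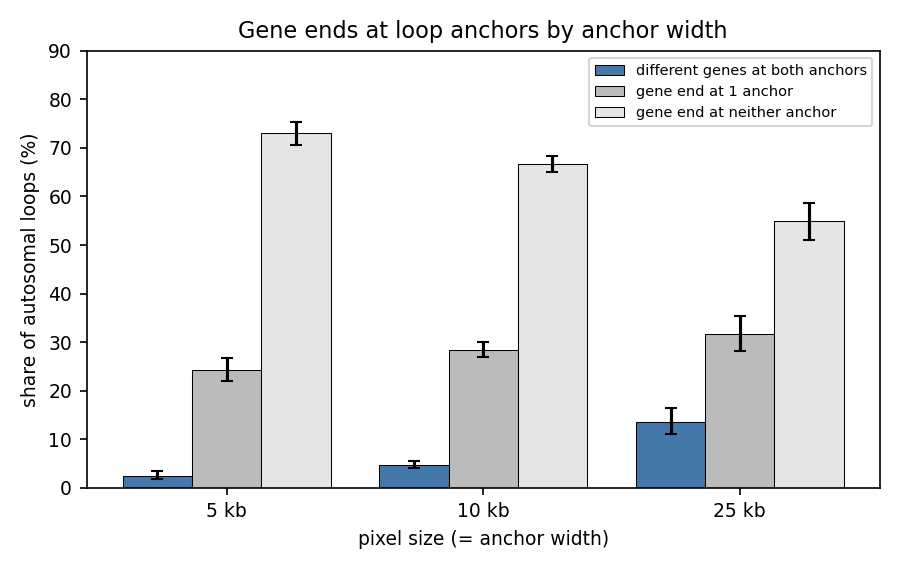
Share of autosomal loops (vertical axis, %) with different genes at both anchors, a gene end at 1 anchor or at neither, for loops of 5, 10 and 25 kb pixels; error bars are Wilson 95% intervals. The share with genes at both anchors goes from 2.53% to 4.77% to 13.5% as anchors widen.

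Developmental regulators stood at both feet of 9 loops. Of the lists of developmental genes, 6 loops had a member at each anchor. Another 3 were counted when the families of transcription factors were added, a step taken after the loops had been seen. The 7 lists cover forebrain and midbrain, Hox and Evx, spinal cord and neurogenesis, mesoderm, endoderm, signals and pluripotency. The pluripotency list holds 24 genes, and the added families include POU, Klf and Sp factors, so the set is not only of silent lineage genes. Together these lists and families hold 417 autosomal genes, of which 29 (6.95%) had an end at an anchor of a gene-to-gene loop, beside 3.07% of all protein-coding genes. List genes were also frequent at autosomal loop anchors of any kind. By list, the share there ran from 3 of 14 genes (endoderm) to 17 of 39 (mesoderm), beside 1899 of all 20665 genes. A raised share was thus not particular to gene-to-gene loops. The 9 loops spanned 160 to 3125 kb, with a median of 630 kb. Their peak scores, a score of the caller without a unit, ran from 4.21 to 9.63 with a median of 5.67. Within loops of their own pixel size all 9 scored above the middle, between percentiles 60.0 and 98.6, with a median at 83.2. The 237 gene-to-gene loops without such a regulator had a median at percentile 51.1.

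The farthest of the 9 led from Metap1d, Dlx1 and Dlx2, the latter homeobox genes of forebrain interneurons and the jaw, to an anchor with Evx2 and Hoxd13, homeobox genes at the limb and genital end of the Hoxd cluster. It spanned 3125 kb over 17 other protein-coding genes and had the highest score of the 9. The Dlx anchor (chromosome 2, 71525001 to 71550000) took part in a second gene-to-gene loop of 95 kb, in which the start of Metap1d, a mitochondrial methionine aminopeptidase, met the start of Dlx2 with a score of 5.79.

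Nkx2-1, a homeobox gene of the thyroid, lung and ventral forebrain, was the only gene whose anchor (chromosome 12, 56530001 to 56540000) had 3 gene-to-gene loops. Its last base was joined to the 5′ end of the record of Pax9, a regulator of the pharyngeal pouches and teeth, over 160 kb with a score of 5.67. It was joined to the anchor of Foxa1, an endoderm pioneer factor, and Ttc6 over 1010 kb with a score of 5.04. The third loop, of 660 kb, ended at the start of Slc25a21, a mitochondrial carrier, and had a score of 3.63. The loops to the fellow regulators thus had higher scores than the loop to the carrier, but the Pax9 loop is of 5 kb pixels and the others of 10 kb, so their scores are not on the same footing: the percentiles within pixel size were 72.2 for Pax9, 83.2 for Foxa1 and 32.5 for Slc25a21.

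Both Irx clusters, triplets of homeobox genes that pattern the neural tube, heart and limbs, had a loop between members. Irx3 and Irx5 were joined over 555 kb on chromosome 8 with a score of 6.67, by 5 kb pixels. Irx2 and Irx4 were joined over 630 kb on chromosome 13 with a score of 4.69, by 10 kb pixels. No other protein-coding gene lay between the feet of either loop. At Irx3 the anchor held the gene's start, while at Irx2 it held the record's last base. At Irx4 it held the record's last base and also a RefSeq start, which lies 908 bases inside the record. Of the 6 Irx genes 4 thus stood in these loops. The members joined were not each other's counterparts, since the clusters correspond as Irx1 to Irx3, Irx2 to Irx5 and Irx4 to Irx6.

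Another 3 loops paired regulators of different kinds. En2, a homeobox gene of the midbrain and hindbrain, met Shh, the signal that patterns the ventral neural tube and limb, over 300 kb on chromosome 5 with a score of 5.73. Pax2, a regulator of kidney, ear and midbrain, met Tlx1, required for the spleen, over 410 kb on chromosome 19 with a score of 4.30. Hmx2 and Hmx3, homeobox genes of the inner ear, met Nkx1-2 over 1050 kb on chromosome 7 with a score of 4.21.

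**Figure D2:**
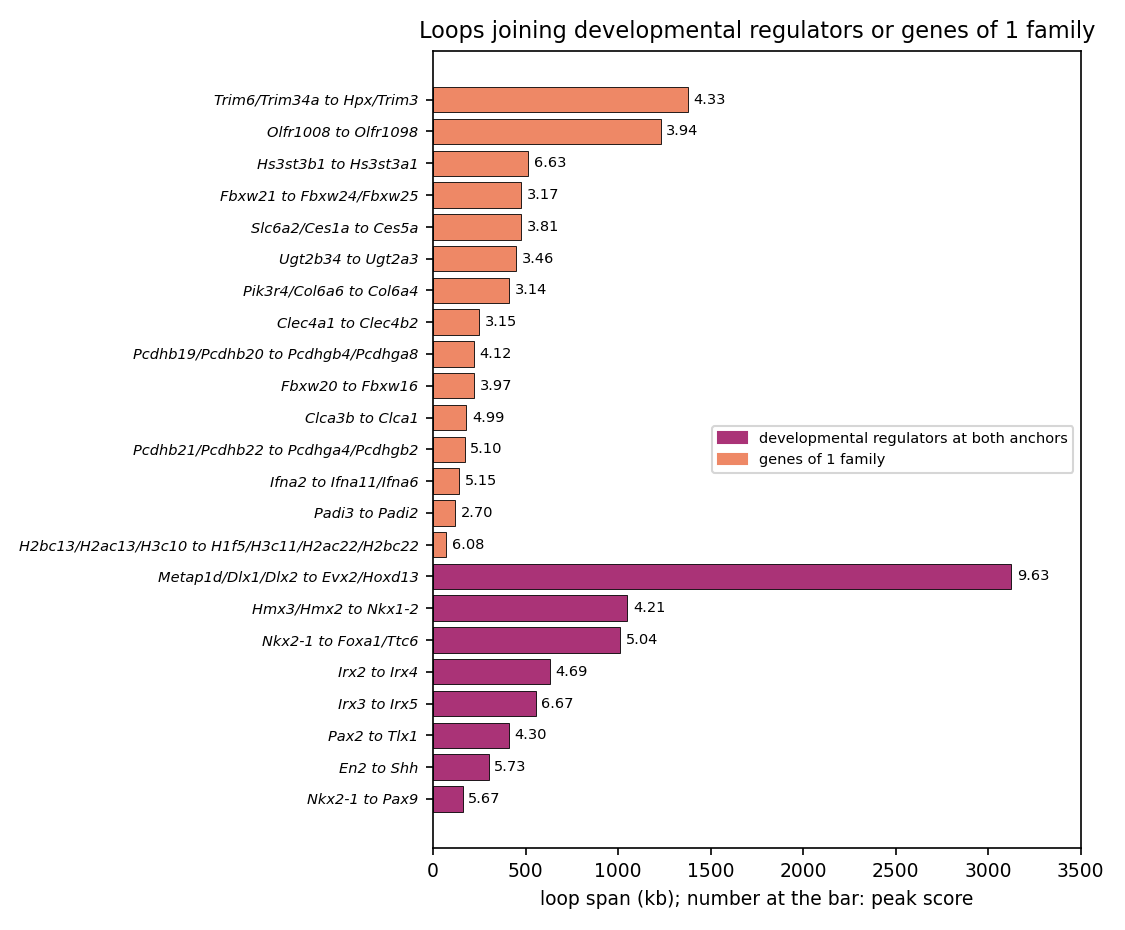
Span (horizontal axis, kb) of 8 of the 9 loops with developmental regulators at both anchors and of the 15 other loops that join genes of 1 family, with the genes at each anchor on the vertical axis and the peak score printed at each bar. The regulator loops reach 3125 kb, while the longest of the 15 others reaches 1375 kb.

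A further 13 loops had a developmental regulator at 1 foot and another gene at the other. Eomes, a T-box factor of mesoderm and trophoblast, had its last base at an anchor joined to the starts of Zcwpw2 and Azi2 over 445 kb with a score of 7.15. Gata2, a regulator of blood, had its start joined over 300 kb to an anchor with Ruvbl1, an ATPase of chromatin remodellers (4.03). Fgf8, a signal of limb and brain patterning, was in 2 loops: its anchor with Npm3 met Dpcd and Fbxw4 over 170 kb (4.46), and another met Lbx1, a homeobox gene of muscle precursors and spinal cord, over 500 kb (4.04). Fgf15, a growth factor of gut and embryo, met the last base of Ano1, a chloride channel gene, over 315 kb (5.81). Sp8, a zinc finger factor of the limb ridge, met Cdca7l over 1025 kb (3.53), and the start of Foxo1 met Nhlrc3 and Proser1 over 1200 kb (3.96). Lbx1 is not in the lists used.

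Set beside all autosomal pairs of protein-coding genes up to 5800 kb apart, pairs of developmental regulators took a larger share of the pairs joined by loops. Both genes came from the developmental lists in 9 of the 432 joined pairs (2.08%), beside 0.0247% of all 1495829 pairs and 0.0635% of pairs weighted to the same distances. With the transcription factor families added the figures were 13 of 432 (3.01%), 0.0548% and 0.0963%. The Dlx to Hoxd loop alone gave 4 pairs of each count. Without it the list pairs were 5 of 426 (1.17%) and the pairs of the wider set 9 of 426 (2.11%). By distance, none of 17 joined pairs under 35 kb and none of 49 at 35 to 100 kb were regulator pairs, counts of 0 that allow shares of up to 17.6% and 6.12%, while 8 of 103 pairs (7.77%) over 800 kb apart were, beside 0.0393% of all pairs that far apart. Of these 8 pairs 4 came from the Dlx to Hoxd loop, and without it 4 of 97 (4.12%) were left, with none of 34 over 1600 kb apart, which allows up to 8.82%. Pairs of 1 loop share their anchors and are not independent. The lists were chosen with earlier results of these data known, and the families were added after the loops had been seen. The background is all gene pairs and not pairs of genes at loop anchors, where list genes were frequent. How much of the contrast follows from that was not tested.

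Families whose members are neighbours gave a mixed picture. By the patterns of gene symbols in 83 families, 12 loops had members of 1 family at opposite anchors, and 14 did by a shared symbol start of at least 4 characters, 17 by either rule. The rule of shared starts passed over predicted symbols, a set of naming series such as Zfp, Tmem and Ccdc, and solute carriers of unlike number. Relatives with unlike symbols, such as Prelp and Fmod below, are not counted by these rules. Among joined gene pairs 31 of 432 (7.18%) were of 1 family, beside 5.38% of all pairs and 10.5% of pairs at the same distances. The comparison turned when the sensory receptors (olfactory, vomeronasal, taste and trace amine) were left out, a choice made after seeing the data. Without them 30 of 423 joined pairs (7.09%) were of 1 family, beside 3.36% of pairs at the same distances. Histones gave 12 of the 31 pairs through 1 loop. Leaving out these as well, 18 pairs (4.38%) were left, and with the receptors kept 19 of 420 (4.52%). Histones were not taken out of the background, so these last shares have no matching value beside them.

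**Figure D3:**
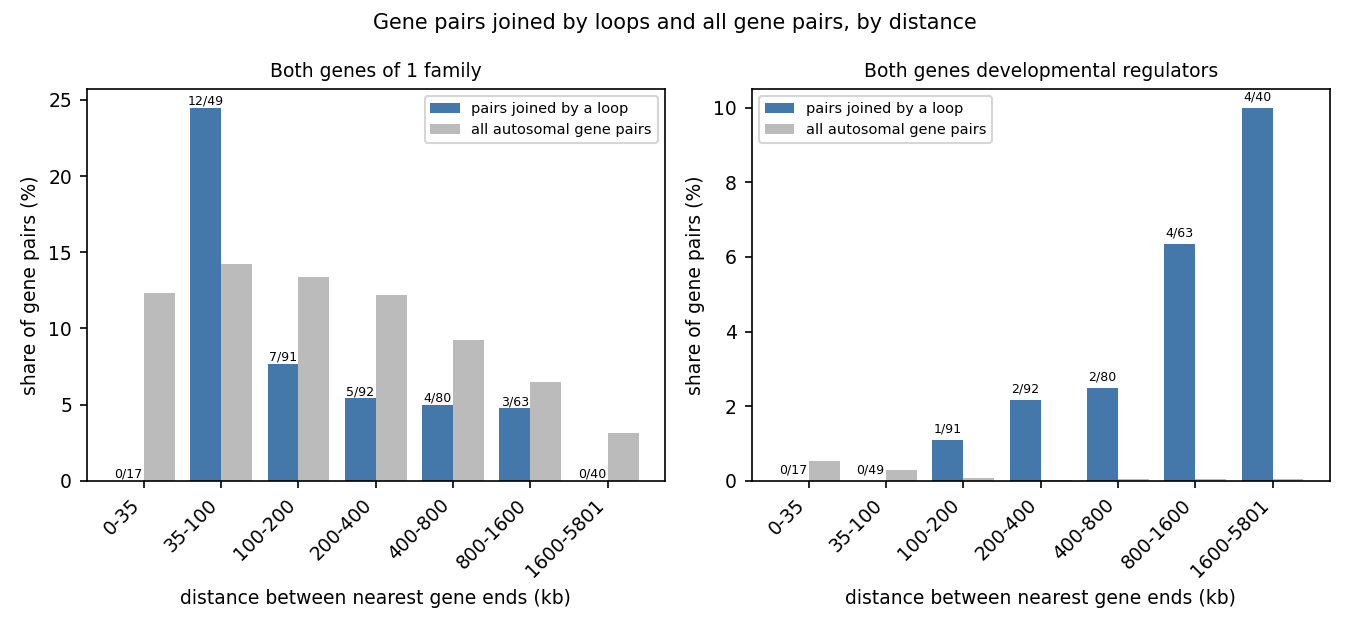
Share of gene pairs (vertical axes, %) in which both genes belong to 1 family (left) or are developmental regulators (right), for pairs joined by a loop and for all autosomal pairs, by the distance between their nearest ends (horizontal axes, kb); counts stand above the bars of joined pairs. Regulator pairs are 4 of 40 joined pairs over 1600 kb apart, all 4 from the Dlx to Hoxd loop, and the tall family bar at 35 to 100 kb, 12 of 49, is the single histone loop.

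After Irx3 to Irx5 the highest score of a family loop, whatever its pixel size, joined Hs3st3b1 to Hs3st3a1, enzymes that add sulfate to heparan sulfate chains. Start met start over 515 kb on chromosome 11, between 63920001 to 63925000 and 64435001 to 64440000, with a score of 6.63 by 5 kb pixels. Both genes ran outward from the loop, on opposite strands. The replication-dependent histone genes, which supply the nucleosome proteins of dividing cells, had a loop of 70 kb on chromosome 13 between H2bc13, H2ac13 and H3c10 at one foot and H1f5, H3c11, H2ac22 and H2bc22 at the other (6.08). No loop of 10 kb pixels spanned less. Within loops of its own pixel size the histone loop stood at percentile 93.6, above Irx3 to Irx5 at 87.5 and Hs3st3b1 to Hs3st3a1 at 87.2. Clustered protocadherins, adhesion proteins that give neurons their identity, had 2 loops on chromosome 18, each from the beta to the gamma cluster: Pcdhb21 and Pcdhb22 to Pcdhga4 and Pcdhgb2 over 170 kb (5.10), and Pcdhb19 and Pcdhb20 to Pcdhga8 and Pcdhgb4 over 220 kb (4.12). The feet of the second loop lay outside those of the first.

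The other family loops joined enzymes, receptors and secreted proteins. Ifna2, an antiviral interferon, met Ifna6 and Ifna11 over 140 kb, across 18 other genes (5.15). Clca3b met Clca1, regulators of chloride transport, over 180 kb (4.99). Trim6 and Trim34a met Trim3, ubiquitin ligases of the tripartite motif family, over 1375 kb and 54 genes (4.33). Olfr1008 met Olfr1098, olfactory receptors, over 1230 kb and 62 genes (3.94), the most genes crossed by any of the 259 loops. F-box genes of the Fbxw group had 2 loops, Fbxw20 to Fbxw16 over 220 kb (3.97) and Fbxw21 to Fbxw24 and Fbxw25 over 475 kb (3.17). Loops also joined Ces1a to Ces5a, carboxylesterases (3.81), Ugt2b34 to Ugt2a3, glucuronosyltransferases (3.46), Clec4a1 to Clec4b2, C-type lectin receptors (3.15), Col6a6 to Col6a4, collagen VI chains (3.14), and Padi3 to Padi2, peptidylarginine deiminases, whose score of 2.70 was the lowest of the 259.

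Counted by genes rather than loops, families differed in how many of their members stood at these anchors, beside 3.07% of all genes. The shares were 4 of 6 for Irx, 2 of 6 for Dlx, 8 of 57 (14%) for the clustered protocadherins and 9 of 75 (12%) for histones. Carboxylesterases had 3 of 19 (15.8%) and tripartite motif genes 6 of 68 (8.82%). Zinc finger genes with Zfp, Zscan, Zkscan or Zbtb symbols, many of them clustered, had 17 of 464 (3.66%) and no loop between 2 members. Solute carriers had 12 of 376 (3.19%), and olfactory receptors 9 of 1104 (0.815%). The Hox and Evx genes had 2 of 41 (4.88%), both in the Dlx loop. In all 30 families had at least 2 genes at these anchors, and 10 of them a loop between members. Among the families without one, dynein chains had 3 of 24 (12.5%), forkhead factors 2 of 41 (4.88%), T-box factors 2 of 16 (12.5%), kinesins 3 of 43 (6.98%), cytochrome P450 enzymes 3 of 99 (3.03%), potassium channels 4 of 115 (3.48%) and transmembrane proteins with Tmem symbols 7 of 231 (3.03%). Neighbours of a cluster share anchors, so these counts are of genes and not of separate contacts. Families also differed at autosomal loop anchors of any kind, where 1899 of all 20665 genes stood. The counts there were 5 of 6 for Irx, 14 of 75 for histones and 11 of 41 for Hox and Evx. They were 36 of 464 for the zinc finger genes, 22 of 1104 for olfactory receptors and 3 of 19 for carboxylesterases. How much of the family shares follows from this was not tested.

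Most gene-to-gene loops joined genes of no common family by the symbol rules, and their strongest scores came from 2 regions. On chromosome 7 an anchor with Prpf31, a splicing factor, and Cnot3, a subunit of the deadenylase complex (3640001 to 3650000), met Ttyh1 and Leng8 over 490 kb with a score of 40.8. The same anchor met Cacng6, a calcium channel subunit, over 210 kb with a score of 15.8. On chromosome 14 Olfr736 met Ttc5 over 375 kb (21.1), Klhl33 met Ndrg2, Tppp2 and Rnase13 over 1025 kb (16.0), and Tlr11 met the starts of Rnase4 and Ang, secreted ribonucleases, over 725 kb (14.6). The remaining high score, 15.6, belonged to the shortest loop of all, 35 kb from LOC108167320 to Ppp2r3d on chromosome 9. The peak pixel of these 6 loops did not follow the score: it stood at percentiles 32.5 and 4.84 of its pixel size on chromosome 7, at 98.3, 13.4 and 16.8 on chromosome 14 and at 99.1 on chromosome 9. The Dlx to Hoxd loop came next.

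The longest gene-to-gene loops were all of 25 kb pixels and joined genes of no common family by the symbol rules. Fubp1, a single-strand DNA binding protein, and Nexn met Srsf11, a splicing factor, and Lrrc40 over 5800 kb (4.11). Asf1a, a histone chaperone, met Ranbp2, a nuclear pore protein, over 4825 kb (6.80). Son, Donson and Cryzl1 met Brwd1 over 4400 kb (4.10), Katna1, which severs microtubules, met Shprh over 3475 kb (6.98), and Fev and Cryba2 met Gm2102 over 3325 kb (5.01). Their peak pixels were low, between percentiles 2.20 and 6.29 of 25 kb loops. At the short end, after the 35 kb loop, Olfml2a met Wdr38 start to start over 65 kb (4.05), and 6 loops spanned 70 kb, among them the histone loop and Fam174c and Efna2 to Pwwp3a and Ndufs7 (5.64).

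The span of gene-to-gene loops against other loops went both ways with pixel size. Over all sizes the median was 350 kb (quartiles 195 and 628 kb), beside 320 kb for the other 4599 loops (190 and 550 kb). At 5 kb pixels it was 143 kb beside 190 kb, at 10 kb pixels 270 kb beside 350 kb, and at 25 kb pixels 863 kb beside 625 kb. Gene-to-gene loops were thus shorter than others at the finer sizes and longer at the coarsest, where 39 of 86 (45.3%) exceeded 1 Mb, beside 155 of 550 (28.2%). The peak score hardly differed: medians were 4.11 beside 4.16 over all loops, 4.91 beside 4.88 at 5 kb, 3.95 beside 3.98 at 10 kb and 4.11 beside 3.8 at 25 kb pixels. The peak pixel at 25 kb, which falls with distance, had a median of 13 beside 14.4.

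**Figure D4:**
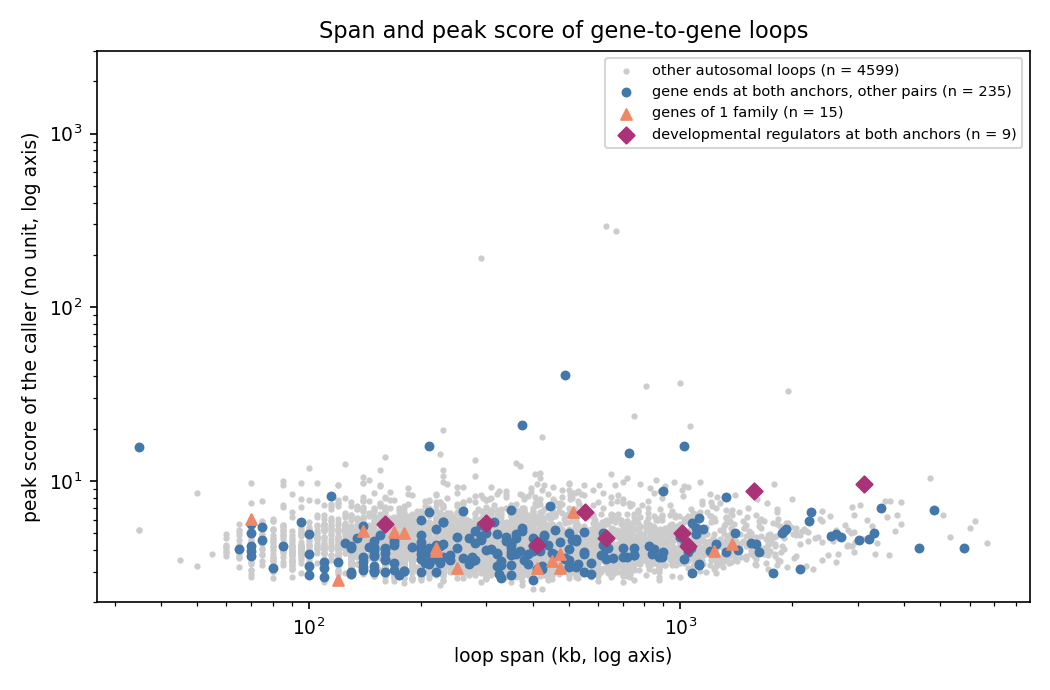
Span (horizontal log axis, kb) against peak score (vertical log axis, no unit) for each autosomal loop: 4599 other loops in grey, 235 gene-to-gene loops without a family or regulator pair in blue, 15 family loops as triangles and 9 regulator loops as diamonds. Families are those of the symbol rules only. The triangles lie between scores of 2.70 and 6.63, and the diamonds between 4.21 and 9.63.

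Between the feet lay a median of 3 other protein-coding genes (quartiles 1 and 6). In 32 loops none did, so that the joined genes were direct neighbours in this sense. Among these were Prelp and Fmod, small leucine-rich proteoglycans of the extracellular matrix, over 135 kb, Gadd45g and Diras2 over 700 kb, Uqcc1 and Gdf5, a joint growth factor, over 100 kb, and both Irx loops.

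Gene starts and gene ends were about as frequent at these anchors. The promoter table, used without chromosome 18, gave the strand of 16457 autosomal genes and of 519 of the 634 at these anchors. Strands of chromosome 18 genes thus count as unknown. A start in this paragraph is the 5′ end of the gene record. This was the RefSeq start used for promoters in 9841 of the 16457 genes. In Irx4, for example, the RefSeq start lay 908 bases inside the record, and its anchor counted as an end. Leaving out genes whose whole record lay inside an anchor, 230 genes (1.40%) had this start there and 226 (1.38%) the other end of the record. At all autosomal anchors the counts were 662 (4.06%) and 711 (4.36%). Of 193 loops with the strand of at least 1 gene known at each foot, 83 (43.0%, 36.2 to 50.1%) had a known start at both, 78 (40.4%) at 1 and 32 (16.6%) at neither. Some of these feet also held a gene of unknown strand, whose start may be missed. In loops with a single gene of known strand at each foot and no whole record inside an anchor, start met start in 19, start met end in 38 and end met end in 26. Of the 19, genes pointed away from each other in 7, toward each other in 5, and along the same strand in 7. Starts at both feet were found in 22 of 37 loops over 1 Mb (59.5%) and in 61 of 156 shorter ones (39.1%). Anchor width moves with this: among 25 kb pixels alone the shares were 18 of 31 (58.1%) and 17 of 35 (48.6%), and its part in the difference was not tested.

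Promoters at these anchors were richer in CpG than promoters in general. Of 286 genes whose RefSeq start lay inside an anchor, 162 (56.6%) had a ratio of observed to expected CpG above 0.6. Beside this stood 46.6% of all 16457 promoters, which leave out chromosome 18, and 240 of 484 (49.6%) at the anchors of other loops only. The median ratio was 0.678, beside 0.556 for all and 0.597 at other anchors. Among the 17 promoters of developmental regulators in the set, 13 were above 0.6 (76.5%), beside 170 of the 285 regulators among all 16457 promoters (59.6%). Of the other 269 in the set, 149 were (55.4%). The GC box (GGGCGG, either strand), bound by Sp factors, was in 48.3% of the 286 windows, 47.3% of those at other anchors and 43.6% of all. The letters TATAAA, either strand, were in 10.8%, 11.8% and 12.5%. The windows shown above for Hoxd13 and Evx2 hold TATAAA, and those of Dlx2, Hoxd13, Nkx2-1, Foxa1, Hs3st3b1 and Hs3st3a1 hold a GC box.

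**Figure D5:**
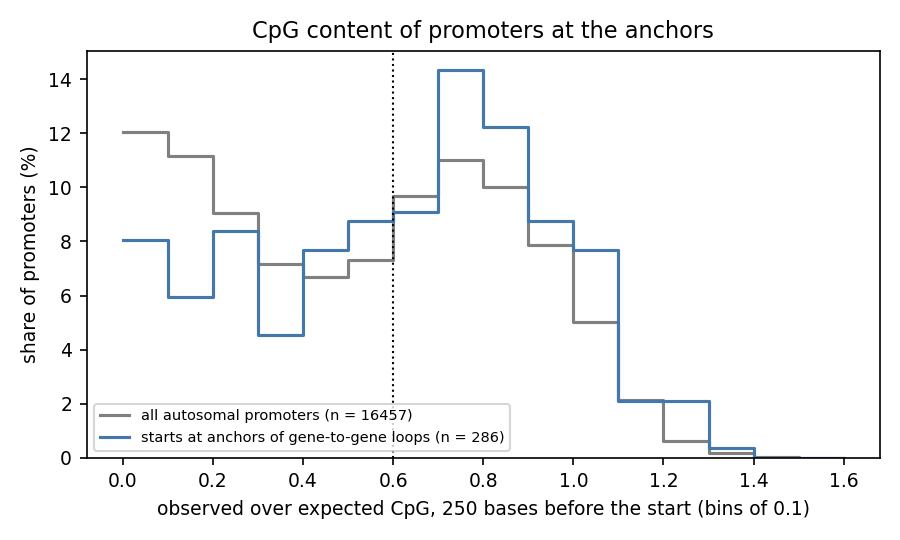
Share of promoters (vertical axis, %) by observed over expected CpG in the 250 bases before the start (horizontal axis, bins of 0.1). Shown are 286 starts at anchors of gene-to-gene loops and all 16457 autosomal promoters, without those of chromosome 18. The dotted line marks 0.6. Above the line lie 56.6% of the former and 46.6% of the latter.

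Gene-to-gene loops were seldom linked into chains. Their anchors merged to 499 sites, of which 18 took part in 2 or more of these loops, and 37 loops fell into 18 chains. Besides the chains of Nkx2-1, Dlx2 and Prpf31, Brwd1 was joined to Zbtb21 over 1875 kb (5.00) and, to the other side, to Son, Donson and Cryzl1. Tg, the thyroid hormone precursor, was joined to Ccn4 over 220 kb (5.30) and to St3gal1 over 430 kb (4.89), both in the same direction. Cd40, an immune receptor, met Slc35c2 over 205 kb (3.38) and Zfp663 over 280 kb (5.15), also in the same direction. A lncRNA gene end also lay at an anchor of 79 of the 259 loops (30.5%), beside 23.3% of other loops, with 28.1% and 20.9% at 5 kb, 28.4% and 22.3% at 10 kb and 34.9% and 34% at 25 kb pixels.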

How the data were processed

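The build was mm10 and Juicer 1.5.6 was among the programs, per the submitters' processing notes. The caller's name, its settings and how the 2 samples were combined are not given in the sources used. The deposited list has no header. Its column 8 and column 10 were taken as the authors' peak score and regional peak score, and column 15 as the authors' peak pixel signal, by inference from the values, and the map's normalization is unknown. Positions were made 1-based. Genes, strands and promoters came from RefSeq tables of GRCm38.p6, and promoters on chromosome 18 were left out. A promoter was the one nearest to the 5′ end of the gene record. Span is the distance between anchor midpoints. Gene pairs were enumerated without drawing at random, in bins of distance between nearest ends. The loops named follow a rule on family, developmental lists, span, score and shared anchors; a few others, chosen after their values were seen, are named beside them. The members and lists were chosen with earlier results of these data known. Functions were tested on simulated data. Python 3.11.15, pandas 2.3.3 and scipy 1.17.1 were used. The results of a certain gene are not reported here, although its loops are included in the counts.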

Additional observations from a re-analysis of the deposited data

How the results depend on the processing

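No paired analysis was possible because the loop list was not split by sample, and for the same reason no replicate could be left out. The use of protein identity to define families was not run. Alternatives on symbol starts, sensory receptors and the combined set of regulators were chosen after seeing the data. The 259 loops became 691 with anchors widened by 5 kb and 139 when only loops scoring above the middle of their pixel size were kept. With gene starts only, among genes of known strand, 83 were left, while 66 loops had an anchor with no known strand and could not be judged. Leaving out predicted symbols gave 240 and leaving out 25 kb pixels gave 173. The 12 family loops became 32 with wider anchors and 7 among the higher-scoring loops. The median score difference of -0.0512 was 0.0216 with wider anchors, 0.0326 at 5 kb and 0.304 at 25 kb pixels. The median span difference of 30 kb was -90.0 kb with wider anchors, -47.5 kb at 5 kb, -80.0 kb at 10 kb and 237.5 kb at 25 kb pixels. The share of joined pairs of 1 family less that of all pairs weighted to the same distances was -3.29 percentage points and 3.73 without sensory receptors, which by construction removes their clusters from the background. Otherwise the cause was not tested. The share of loops with starts at both feet was 43.0%, and 39.4% and 37.8% with wider anchors and without 25 kb pixels.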

Other observations

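On the X chromosome, outside the set described, 5 of 124 loops (4.03%) had ends of different genes at both anchors. They joined Ddx3x, an RNA helicase, to Nyx over 170 kb (peak score 4.82), Il13ra2 to Lrch2 over 130 kb (4.06), Sh3kbp1 to Map3k15 and Pdha1, a subunit of pyruvate dehydrogenase, over 150 kb (3.6), Rbmx2 to Enox2 over 600 kb (3.53) and Tcp11x2 to Arxes2 over 325 kb (3.52). The 4 autosomal loops that join the ends of a single gene had scores of 4.13 (Abtb2), 4.0 (Matn2), 3.91 (Grk5) and 2.93 (Cacng2) and spans of 130 to 210 kb.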
